A study of Mus musculus with 142 samples.

Results

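The small heat shock protein and Bag3 group held 9 mouse genes of the 54127 genes to which the deposited transcript estimates were summed. Its members were Hspb1, Hspb2, Hspb6 and Hspb8, which encode small heat shock proteins, Bag3, which encodes a co-chaperone, Hspa1a and Hspa1b, which encode the stress-inducible Hsp70, Dnajb1, which encodes an Hsp40 partner of Hsp70, and Hsf1, which encodes the transcription factor of the heat shock response. They were taken by name, and the group was chosen by the K27M-to-Control difference of Hspb8 in telencephalon cultures, which was among the lowest of all genes. For that reason the telencephalon difference between genotypes is given below as values with no test, and so is Hspb8 wherever telencephalon libraries enter. All 9 members passed the filter on low counts, Hspb2 only through day 5 libraries: its level was at or above the filter's 0.214 CPM (counts scaled to the library's total) in 30 of the 36 day 5 wells and in 0 of the 106 earlier wells.

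The cells were oligodendrocyte progenitor cells (OPCs), immunopanned on an antibody to PDGFRa after depletion of endothelial cells and microglia, from brainstem or from dorsal telencephalon (cortex with corpus callosum and hippocampus) of pups at postnatal days 5 to 7. K27M pups carried the Cre-dependent K27M knock-in at H3f3a together with hGFAP-Cre (AMGFAP-Cre;K27M), in which Cre is active in neural stem and progenitor cells and in what they give rise to, and Control pups were their littermates. Pups were pooled by region and genotype, so that a line (a region, a genotype and culture 38, 41 or 42) stood for a pool of animals, and every line was kept in proliferation medium (day 0) or in differentiation medium with thyroid hormone for 1, 2 or 5 days. All cultures of both genotypes received CNTF and forskolin, with PDGF and NT3 added for proliferation. The 16 groups of K27M and Control cells, in brainstem and in telencephalon, at days 0, 1, 2 and 5, held 9 wells each, except 8 for brainstem K27M at day 2 and 8 for brainstem Control at day 1. These libraries came from 12 lines. The wells of a line share their cells, so a gene was called in a comparison only where the Benjamini-Hochberg adjusted p of edgeR's quasi-likelihood test was under 0.05 both over wells and after the wells of a line and day had been summed, with the same sign.

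Small heat shock proteins bind unfolding proteins without using ATP and hold them until Hsp70 can refold them. HSPB8 works in a complex with BAG3, which joins it to Hsp70 and to the ubiquitin ligase CHIP (Stub1) and hands aggregating clients, filamins of the cytoskeleton among them, to autophagy. HSPB1 also caps actin filaments, HSPB6 is best known from muscle, and HSPB2 from heart and skeletal muscle. HSF1 drives the inducible Hsp70 genes, Dnajb1, Hspb1 and Bag3 after heat shock by binding inverted repeats of nGAAn upstream of or near their start sites. In brain, small heat shock proteins are known from astrocytes and from myelinating oligodendrocytes, and alpha-B-crystallin (Cryab), their relative, is abundant in myelin.

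The start regions of the members are shown so that the letters HSF1 is known to bind can be looked for in them. RefSeq promoters (GRCm38.p6, 250 bases before to 50 bases after the start) were found for 7 of the 9 members in 9 entries. Each is written 5′ to 3′ on the gene's own strand, with matches to GAANNTTC, the pair of facing repeat units, in capitals. The first lies at chr5:116422815-116423114 on the minus strand, the next at chr5:135887669-135887968 on the plus strand, then chr7:30553051-30553350 on the plus strand (the second of the 2 Hspb6 entries), chr7:128523333-128523632 on the plus strand and chr17:34972107-34972406 on the minus strand.
Hspb8: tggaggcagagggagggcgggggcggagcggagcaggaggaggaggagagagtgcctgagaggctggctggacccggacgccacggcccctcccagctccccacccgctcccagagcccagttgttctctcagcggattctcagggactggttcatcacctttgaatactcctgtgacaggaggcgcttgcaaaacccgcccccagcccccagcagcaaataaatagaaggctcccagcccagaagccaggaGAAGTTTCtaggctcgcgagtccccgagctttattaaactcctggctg
Hspb1: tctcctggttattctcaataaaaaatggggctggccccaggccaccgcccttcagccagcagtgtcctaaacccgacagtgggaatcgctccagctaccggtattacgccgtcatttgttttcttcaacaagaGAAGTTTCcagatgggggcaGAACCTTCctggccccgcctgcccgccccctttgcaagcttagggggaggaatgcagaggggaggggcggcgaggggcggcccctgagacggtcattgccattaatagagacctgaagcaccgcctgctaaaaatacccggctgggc
Hspb6, the second start: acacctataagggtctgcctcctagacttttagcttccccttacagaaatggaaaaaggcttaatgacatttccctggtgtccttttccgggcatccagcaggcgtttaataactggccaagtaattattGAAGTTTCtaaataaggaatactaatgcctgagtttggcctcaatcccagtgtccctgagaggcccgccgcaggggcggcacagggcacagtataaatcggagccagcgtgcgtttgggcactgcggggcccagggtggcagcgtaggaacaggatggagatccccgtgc
Bag3: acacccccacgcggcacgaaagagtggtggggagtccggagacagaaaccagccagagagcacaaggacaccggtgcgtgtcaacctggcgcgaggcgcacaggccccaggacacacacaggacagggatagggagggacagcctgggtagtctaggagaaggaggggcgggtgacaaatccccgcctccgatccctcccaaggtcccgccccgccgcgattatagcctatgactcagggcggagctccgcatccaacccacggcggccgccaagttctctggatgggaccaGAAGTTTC
Hspa1a: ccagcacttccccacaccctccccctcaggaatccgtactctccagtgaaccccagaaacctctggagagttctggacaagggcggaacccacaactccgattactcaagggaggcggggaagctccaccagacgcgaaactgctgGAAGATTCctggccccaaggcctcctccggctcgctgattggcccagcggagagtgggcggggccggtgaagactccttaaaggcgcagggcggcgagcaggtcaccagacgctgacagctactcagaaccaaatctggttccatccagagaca
Each of the 5 printed sequences holds a match, and the entries without one are not printed, nor is that of Hspa1b. The same octamer, GAAGTTTC, stood in 4 of the 9 entries. In Hspb8 it began 2 bases downstream of the RefSeq start, in Bag3 42 bases downstream, in Hspb1 117 bases upstream and in Hspb6 120 bases upstream of the second start. Hspb1 held another match, GAACCTTC, 97 bases upstream. Hspa1a and Hspa1b shared GAAGATTC, 104 bases upstream, in promoters that were the same at 296 of 300 positions. No match was found in the other Hspb6 entry or in the 2 entries for Dnajb1. Among all 32851 RefSeq promoters of this length 7.86% held GAANNTTC on the printed strand (the motif is its own reverse complement), 8.52% held TTCNNGAA and 15.06% either. GAAGTTTC, an octamer picked out after the sequences had been seen, or its reverse complement stood in 1.212% of them. A match describes letters only.

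Libraries held 26566247 to 455387684 estimated read pairs, with a median of 46895632. The deepest was brainstem Control well 38-3 at day 5, and the next held 84735528. H3f3a, the targeted gene, whose knock-in allele still gives H3f3a RNA, stood at 359 to 765 CPM in K27M wells and 148 to 545 CPM in Control wells, with every K27M well above every Control well in 6 of 8 regions and days. The libraries were stranded by their kit. OPC markers were present in every group (10 genes, 1456 to 7034 CPM summed over the list), and of 10 microglial markers 3 passed the filter. The passage number of a culture differed between genotypes in brainstem (mean 3.83 in K27M and 5.51 in Control) and hardly in telencephalon (2.11 in K27M and 2.14 in Control). In both genotypes it was higher in brainstem than in telencephalon. The labels give batch 3 to culture 38 and batch 4 to cultures 41 and 42 in brainstem, and batches 1 and 2 in the same way in telencephalon, so region and batch cannot be told apart. Brainstem Control wells of cultures 41 and 42 at day 5 held 24905 to 33752 detected genes, against 25247 to 26761 in the K27M wells of the same cultures and 20157 to 29299 in all other libraries. In 7 of 24 pairs of a culture and day K27M and Control wells of the same passage existed. Telencephalon K27M wells 42-1 at days 1 and 2 stood apart from the other K27M wells of culture 42. At day 2 well 42-1, at passage 1, correlated at r = 0.974 to 0.985 with the 3 Control wells of its culture and 0.962 to 0.963 with the other K27M wells, which were at passage 3 (log2 CPM over 14033 genes). At day 1 it was the other way, with r = 0.983 with the other K27M wells and 0.967 to 0.968 with the Control wells. The H3f3a level of well 42-1 at day 2 was 620 CPM, inside the K27M range. The values without these wells stand beside the results that they moved most.

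Hspb8 was the most abundant member per unit of length once cells had differentiated. Its TPM, the share of transcripts after division by their length, had a median of 58.4 in telencephalon Control wells at day 5, against 4.93 TPM for Hspb6, 4.75 TPM for Dnajb1 and 2.04 TPM for Hspb1 in the same wells. At day 0 Dnajb1 led with 9.06 TPM and Hspb8 had 2.03 TPM. A single 300-base RNA took 42.0 to 63.3% of all TPM, so TPM is used here only between genes of the same wells and CPM, scaled by TMM factors, between libraries.

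In telencephalon, the contrast for which Hspb8 was chosen, K27M wells held less Hspb8 RNA than Control wells at days 1 and 2. At day 0 Hspb8 ranged over 1.34 to 5.52 CPM (median 3.48) in K27M wells and 2.33 to 7.06 CPM (median 5.91) in Control wells. At day 1 it ranged over 0.761 to 7.501 CPM (median 1.104) in K27M wells and 1.65 to 8.33 CPM (median 5.59) in Control wells. At day 2 the values were 1.12 to 29.7 CPM (median 2.29) in K27M wells and 11.97 to 65.81 CPM (median 37.45) in Control wells. At day 5 they were 123 to 169 CPM (median 146) in K27M wells and 183 to 286 CPM (median 236) in Control wells. The wells of the genotypes overlapped at days 0 to 2 and lay apart at day 5, when the difference was smaller. The fitted log2 differences at days 0, 1, 2 and 5 were −0.54, −1.56, −2.69 and −0.66. At days 1, 2 and 5 K27M was the lower genotype in all 3 cultures. At day 0 the wells of culture 41 averaged 5.02 CPM in K27M and 4.90 CPM in Control, while K27M was lower in cultures 38 and 42. At day 2 the difference ranked 36th from the lowest of 19769 genes. The overlap at days 1 and 2 came from the wells 42-1, which held 7.501 and 29.73 CPM, whereas no other K27M well exceeded 1.289 CPM at day 1 or 3.902 CPM at day 2. Without these wells the log2 differences were −2.24 at day 1 and −3.70 at day 2. In bulk RNA a change in the share of cells that express a gene and a change in RNA per cell cannot be told apart.

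**Figure D1:**
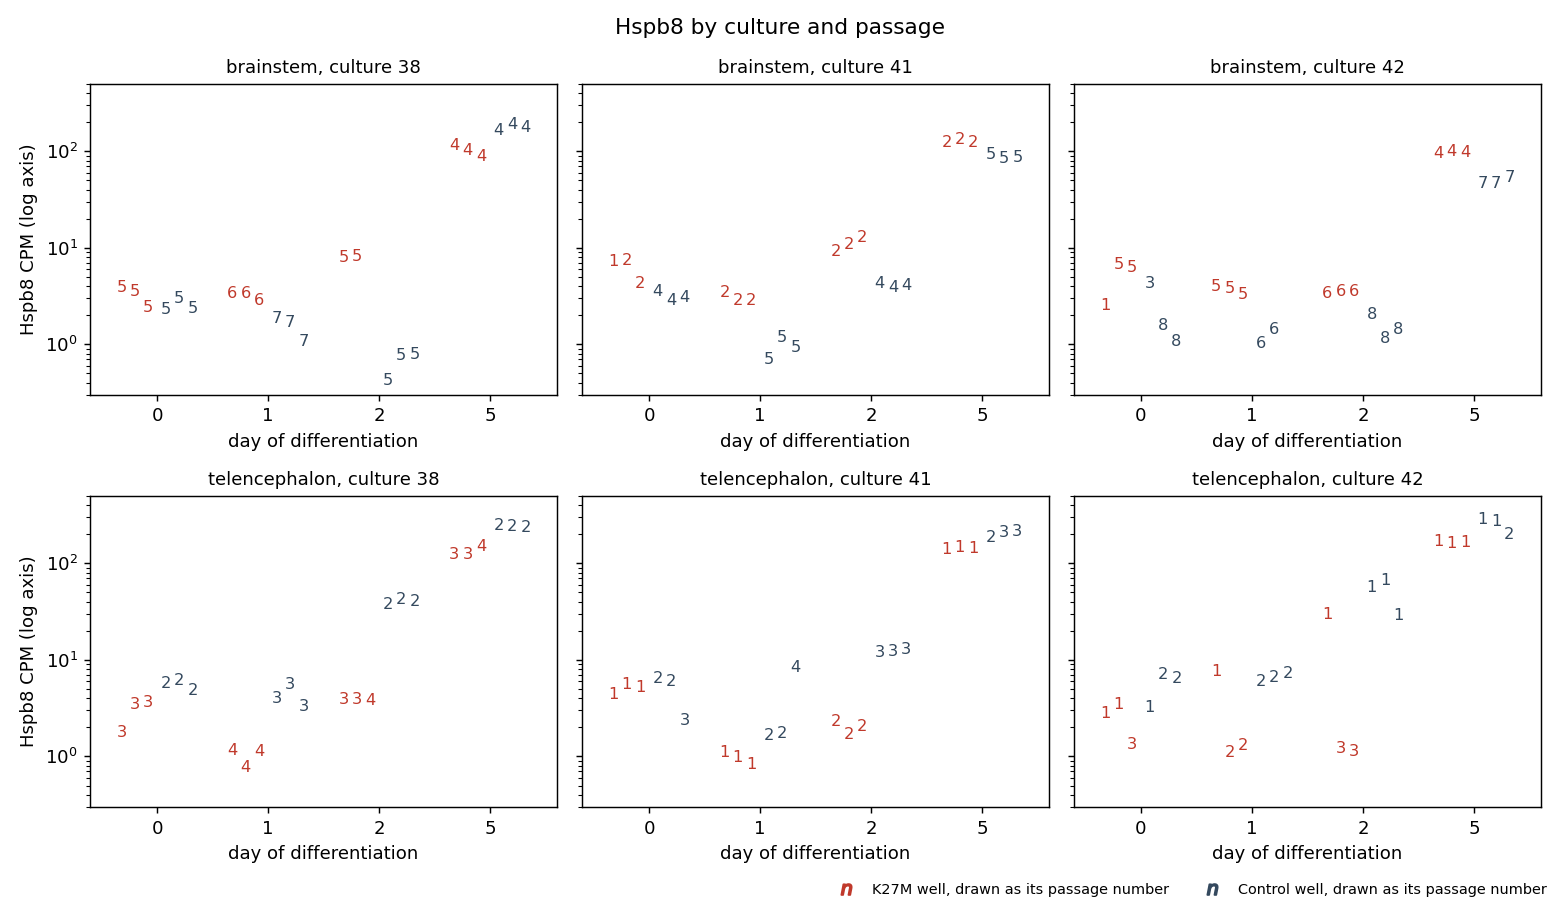
Hspb8 CPM (log axis) by day of differentiation in a panel for each region and culture, every well drawn as its passage number, K27M wells left of Control wells. Telencephalon K27M wells 42-1, at passage 1 on day 2 and standing at 29.7 CPM, lie within the 29.1 to 65.8 CPM of the Control wells of the same culture and passage.

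Passage numbers differed between wells of a group. Where the passage was the same, the telencephalon K27M wells of culture 42 averaged 3.14 CPM of Hspb8 against 3.20 CPM in Control at day 0, and 1.20 CPM against 6.62 CPM at day 1. At day 2 the K27M well 42-1 had 29.7 CPM, against a mean of 50.4 CPM in its 3 Control wells, and at day 5 K27M averaged 164 CPM and Control 277 CPM. K27M wells were lower than all Control wells of equal passage at days 1 and 5 and overlapped them at days 0 and 2. In culture 41 at day 1 the K27M wells, all at passage 1, averaged 0.965 CPM and the Control wells, at passages 2 to 4, averaged 3.903 CPM. With passage as a covariate the log2 differences of Hspb8 at days 0, 1, 2 and 5 were −0.63, −1.75, −2.57 and −0.73. Astrocyte marker RNA (10 genes, summed) moved with it in the wells 42-1: well 42-1 held 1491 CPM at day 2, against 118 and 141 CPM in the other K27M wells of the culture and 1498 to 2759 CPM in its Control wells. Over all telencephalon wells at day 2 the astrocyte sum was 118 to 1491 CPM in K27M (median 186) and 384 to 2759 CPM in Control (median 1786), and none of the 10 markers was at 0 in every well of a group. The part of astrocytes in the Hspb8 values was not tested.

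In brainstem, which the choice of members did not use, the sign was the other way. At day 2 Hspb8 rose in K27M cells, to 3.35 to 12.7 CPM (median 8.00), against 0.418 to 4.23 CPM (median 1.43) in Control wells. The log2 fold change was 1.77 ± 0.36 (SE, 8 and 9 wells), with adjusted p = 5.21e-05 over wells and 0.0392 over summed lines, and K27M was higher in 3 of 3 cultures although the wells overlapped. At day 1 every K27M well (2.81 to 3.97 CPM) lay above every Control well (0.698 to 1.85 CPM), with a log2 fold change of 1.46 ± 0.39, adjusted p = 0.00213 over wells and 0.103 over summed lines, so that no call was made. At day 0 K27M wells held 2.42 to 7.43 CPM (median 4.30) and Control wells 1.07 to 4.24 CPM (median 2.87). At day 5 K27M wells held 88.6 to 133 CPM (median 103) and Control wells 46.3 to 187 CPM (median 86.3). Neither day passed the test (log2 fold change 0.91 ± 0.34, adjusted p = 0.0674 at day 0, and 0.09 ± 0.31, adjusted p = 0.859 at day 5). The day 2 call was lost over summed lines with passage number as a covariate (1.28, adjusted p = 0.145), without the block for culture (adjusted p = 0.0877), and when culture 38, 41 or 42 was left out (1.33, 2.12 and 2.00, adjusted p = 0.263, 0.0834 and 0.116). In culture 38, the only brainstem culture with equal passages at days 0, 2 and 5, Hspb8 averaged 8.00 CPM in K27M and 0.657 CPM in Control at day 2, with all K27M wells higher, and 102 CPM in K27M and 176 CPM in Control at day 5, with all K27M wells lower.

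**Figure D2:**
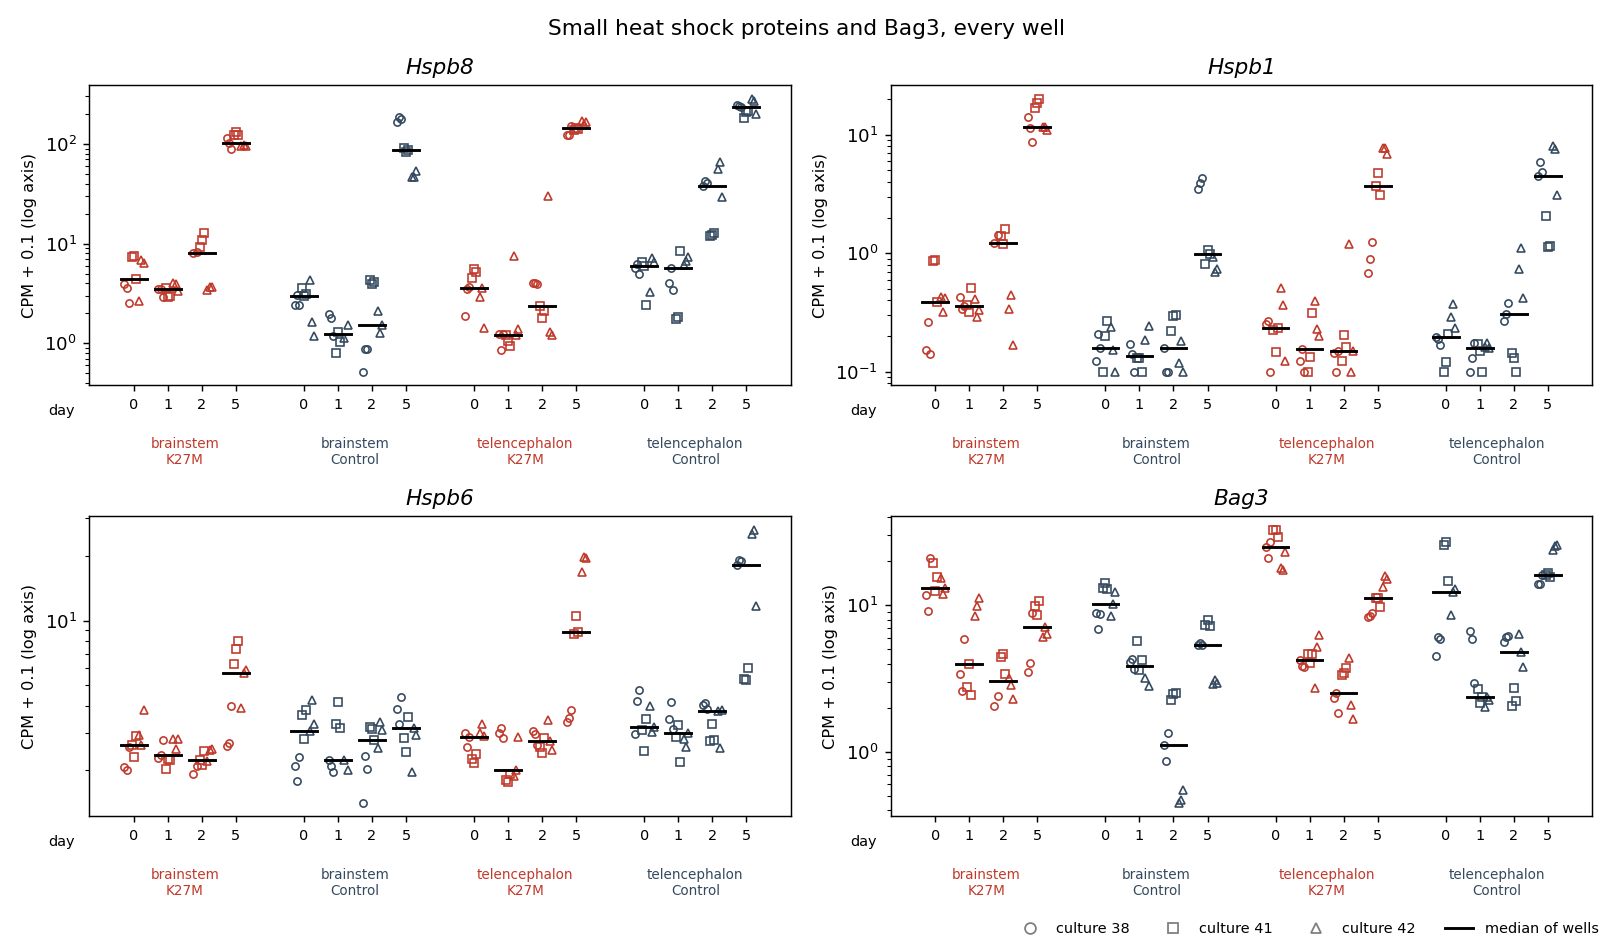
CPM plus 0.1 on a log axis for Hspb8, Hspb1, Hspb6 and Bag3 in each well, by region and day, K27M left of Control, with the median of each group as a bar. Hspb8 climbs between days 2 and 5 in all 4 series to between 46.3 and 286 CPM, Hspb1 in brainstem K27M at day 5 (8.63 to 20.1 CPM) stands above every other group's range, and Bag3 dips at days 1 and 2.

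Across days, Hspb8 rose in brainstem at day 5 only, by a log2 fold change over day 0 of 4.45 ± 0.36 in K27M (adjusted p = 3.25e-22 over wells) and 5.27 ± 0.38 in Control (adjusted p = 6.68e-26). The change of that rise with K27M was −0.82 ± 0.46 (adjusted p = 0.221), and 0 of 9 members passed the test for such a change in edgeR and 0 in DESeq2, against 0.612% of all genes, with 2 members at an unadjusted p under 0.05. In telencephalon the difference between day 5 and day 0 was 5.31 on the log2 scale in K27M and 5.43 in Control, while that between day 2 and day 0 was 0.41 in K27M and 2.57 in Control. Without the wells 42-1 the K27M value at day 2 was −0.49, the opposite sign. Brainstem minus telencephalon, Hspb8 in K27M cells differed by 0.55, 1.20, 0.64 and −0.31 at days 0, 1, 2 and 5, and in Control cells by −0.90, −1.81, −3.83 and −1.06. Without the wells 42-1 the K27M values were 1.69 at day 1 and 1.45 at day 2. Ordered by the mean of 3 cultures, the 4 day 5 groups came first: telencephalon Control at 231 ± 26.0 CPM (SD, 3 cultures), telencephalon K27M at 146 ± 16.3 CPM, brainstem K27M at 108 ± 16.2 CPM and brainstem Control at 104 ± 65.6 CPM. Telencephalon Control at day 2 came next, at 34.2 ± 19.7 CPM, followed by brainstem K27M at day 2, at 7.46 ± 3.73 CPM. The lowest was brainstem Control at day 1, at 1.24 ± 0.30 CPM. Only 3 of the 15 neighbours in this order had culture values that did not overlap, telencephalon Control and telencephalon K27M at day 5, telencephalon K27M and brainstem K27M at day 5, and telencephalon Control and brainstem K27M at day 2.

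Hspb1, which protects the actin cytoskeleton and is a classical heat shock target, was the member with the largest called K27M effect in brainstem. At day 5 it stood at 8.63 to 20.1 CPM (median 11.4) in K27M wells, against 0.597 to 4.25 CPM (median 0.880) in Control wells, and no wells overlapped. It rose by a log2 fold change of 2.96 ± 0.42, with adjusted p = 3.43e-09 over wells and 0.00891 over summed lines, in 3 of 3 cultures. The culture means at day 5 were 11.3, 18.4 and 11.2 CPM in K27M and 3.80, 0.853 and 0.686 CPM in Control, for cultures 38, 41 and 42. At day 2 K27M wells held 0.069 to 1.503 CPM (median 1.11) and Control wells 0 to 0.200 CPM (median 0.060), and Hspb1 rose by 3.41 ± 0.57 on the log2 scale (adjusted p = 7.72e-07 and 0.0136). These day 2 levels rest on few reads, 369 counts over 8 K27M wells and 29 counts over 9 Control wells. At days 0 and 1 the log2 fold changes were 2.16 ± 0.56 and 2.32 ± 0.65, past the threshold over wells (adjusted p = 0.00369 and 0.0038) and not over summed lines (0.294 and 0.152). With passage number as a covariate the day 5 value was 1.87 (adjusted p = 1.38e-05 over wells and 0.066 over summed lines), and it was 1.57 (adjusted p = 0.12) from culture 38 alone at day 5, which leaves out the Control wells with the most detected genes, 2.44 without culture 41 and 2.53 without culture 42, with no call in any of the 4. The day 2 call was lost over summed lines without the block for culture (adjusted p = 0.0592) and without culture 38, 41 or 42 (adjusted p = 0.0529, 0.0682 and 0.128, with values of 2.78, 4.43 and 3.62). At equal passage, in culture 38, Hspb1 averaged 1.22 CPM in K27M and 0.0199 CPM in Control at day 2, and 11.3 CPM in K27M and 3.80 CPM in Control at day 5, with all K27M wells higher on both days.

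Of the 9 members, 2 were called in K27M brainstem cells at day 2, both higher, where 4.26% of all genes tested were called and 3.18% called higher, and 1 was called higher at day 5, where 12.1% were called and 8.36% called higher. None was called at day 0 or day 1, where the shares of all genes were 1.45% and 4.93%, with 3 and 4 members at an unadjusted p under 0.05 in edgeR's test. DESeq2 called 0 at day 0 and 1, Hspb8, at day 1. The median log2 fold change of the 9 members was 0.29, 0.10, 0.34 and 0.20 at days 0, 1, 2 and 5, beside 0.0073, 0.03, −0.0019 and −0.025 over all genes tested.

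Some markers of other cells also differed between K27M and Control wells in brainstem, and not alike in every culture. At day 2 the astrocyte sum was 299.6 to 647.4 CPM in K27M wells (median 390.6) and 107.3 to 252.1 CPM in Control wells (median 218.3), with no overlap, and 1 of 10 markers, Fgfr3, was called higher, while Gjb6 was at 0 in all Control wells. By culture 38, 41 and 42 that sum was 390.6, 592.7 and 307.5 CPM in K27M and 226.9, 225.2 and 111.8 CPM in Control. The smooth muscle, mural, endothelial and fibroblast list summed to 0.7546 to 3.425 CPM in K27M wells and 0.4249 to 0.9761 CPM in Control wells at day 2, with 1 of 13, Acta2, called higher and Cldn5 at 0 in all wells of both. Of 10 neuronal markers 4 were called higher at day 2, with sums of 536.9 to 993.2 CPM in K27M wells and 614.2 to 1023 CPM in Control wells. At day 5 the astrocyte sum was 1366 to 2809 CPM in K27M wells (median 1754) and 282 to 2239 CPM in Control wells (median 350), and 1 of 10 astrocyte markers, Slc1a3, was called higher. By culture 38, 41 and 42 the astrocyte sum was 1385, 2673 and 1727 CPM in K27M and 2097, 315 and 353 CPM in Control. The smooth muscle and vessel list summed to 3.82 to 12.4 CPM in K27M wells and 0.740 to 3.33 CPM in Control wells at day 5, with 2 of 13, Acta2 and Tagln, called higher. Of 10 neuronal markers 3 were called higher at day 5 (489 to 659 CPM summed in K27M wells and 486 to 565 CPM in Control wells), and no marker of these 3 lists was at 0 in every well of either day 5 group. Myelin markers (10 genes) summed to 29410 to 37800 CPM in K27M wells and 44550 to 62230 CPM in Control wells at day 5, with no overlap and 1 of 10, Opalin, called lower. The part of these cells in the Hspb1 and Hspb8 values was not tested.

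**Figure D3:**
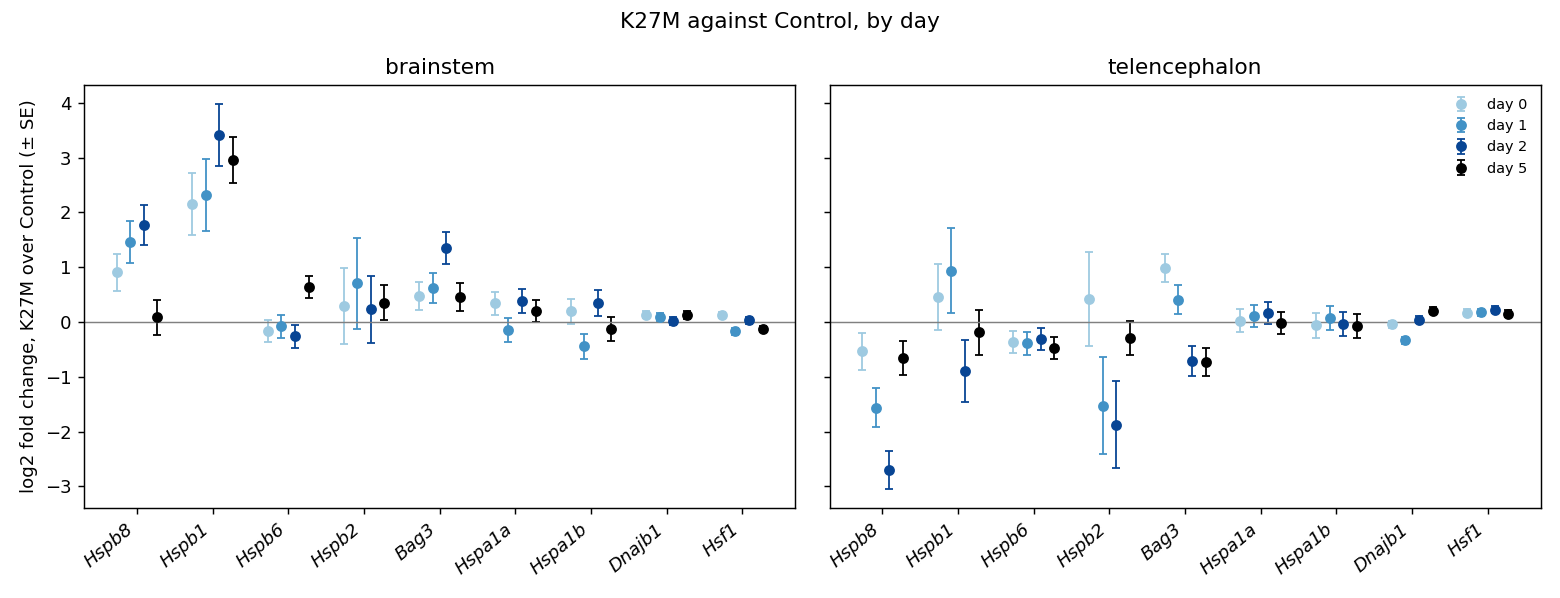
Fitted log2 fold change of K27M over Control with its SE for the 9 members, in brainstem and telencephalon, at days 0, 1, 2 and 5, with no test for telencephalon. The calls in brainstem were Hspb1 at days 2 and 5 (3.41 and 2.96) and Hspb8 at day 2 (1.77), and the lowest telencephalon value is Hspb8 at day 2 (−2.69).

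Hspb1 was low until day 5 in each series. From day 0, when it stood at 0 to 0.783 CPM over all wells of the 4 series, it rose at day 5 by 5.36 ± 0.47 on the log2 scale in brainstem K27M, 4.56 ± 0.53 in brainstem Control, 4.71 ± 0.50 in telencephalon K27M and 5.34 ± 0.52 in telencephalon Control (adjusted p between 3.16e-20 and 1.39e-13 over wells). In telencephalon at day 5 K27M wells held 0.587 to 7.62 CPM (median 3.59) and Control wells 1.03 to 7.89 CPM (median 4.37), a log2 difference of −0.19. Its cultures spread widely within either genotype, at 0.843, 3.75 and 7.33 CPM in K27M and 4.99, 1.34 and 6.10 CPM in Control for cultures 38, 41 and 42. The astrocyte sum in the same cultures was 725, 3001 and 5556 CPM in K27M and 7028, 3219 and 12460 CPM in Control. Between regions Hspb1 was higher in brainstem K27M than in telencephalon K27M cells, by 3.24 ± 0.60 at day 2 (adjusted p = 3.03e-06 and 0.00776; 4.67 without the wells 42-1) and 2.58 ± 0.52 at day 5 (adjusted p = 1.36e-05 and 0.0267). At day 2 this held in 2 of 3 cultures, and neither call held over summed lines without the block for culture (adjusted p = 0.324 and 0.291), nor at day 2 without culture 38 (0.0605) or at day 5 without culture 42 (0.156). In Control cells the region difference at day 5 was −0.56 ± 0.43 (adjusted p = 0.27). Brainstem K27M at day 5 (mean of cultures 13.6 CPM) was set apart in the order of the 16 groups from telencephalon Control at day 5 (4.14 CPM), the only neighbours of 15 whose cultures did not overlap.

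Hspb6 differed from Hspb1 and Hspb8 in when and where it was high. Until day 2 it stood at 1.31 to 4.65 CPM in all wells of all groups. At day 5 it ranged over 2.49 to 7.93 CPM (median 5.60) in brainstem K27M, 1.86 to 4.29 CPM (median 3.06) in brainstem Control, 3.27 to 19.8 CPM (median 8.79) in telencephalon K27M and 5.19 to 26.5 CPM (median 18.1) in telencephalon Control. Over day 0 it rose by 0.95 ± 0.20 in brainstem K27M (adjusted p = 1.09e-05), 1.98 ± 0.21 in telencephalon K27M (adjusted p = 3.18e-16) and 2.08 ± 0.20 in telencephalon Control (adjusted p = 1.66e-17), while brainstem Control gave 0.15 ± 0.20 (adjusted p = 0.507). The brainstem K27M rise was 0.49 without culture 41 and 1.102 without culture 42, and was not called then. Brainstem Control cells held less than telencephalon Control cells at day 5, with a log2 difference of −2.50 ± 0.22 (adjusted p = 6.86e-19 and 4.43e-05) and no overlap of wells. Brainstem K27M cells held less than telencephalon K27M cells (−1.40 ± 0.23, adjusted p = 2.38e-07 and 0.0233), a call that was lost when culture 38, 41 or 42 was left out (−0.82, −1.53 and −0.87). It was also lost with passage as a covariate and without the block for culture. K27M against Control in brainstem at day 5 gave 0.64 ± 0.20, past the threshold over wells (adjusted p = 0.00703) and not over summed lines (0.31).

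The day 5 rise of Hspb6 lay in transcripts from the downstream start. ENSMUST00000044048.7 (chr7:30553268-30555443, plus strand) begins 33 bases upstream of the second RefSeq start, whose sequence with GAAGTTTC is printed above. Its median was 3.76 CPM at day 5 and 1.03 CPM at day 0 in brainstem K27M, 1.01 and 0.702 CPM in brainstem Control, 6.95 and 0.877 CPM in telencephalon K27M, and 14.4 and 1.1 CPM in telencephalon Control. ENSMUST00000123355.7 and ENSMUST00000126989.7, which begin 777 and 1123 bases upstream of that start, had day 5 medians of 0.876 to 1.40 CPM and 0.519 to 0.917 CPM in the 4 series. These are Salmon's split of reads between overlapping transcripts, and Hspb6 also overlaps Lin37, Proser3 and Gm38670, so the division is an estimate.

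**Figure D4:**
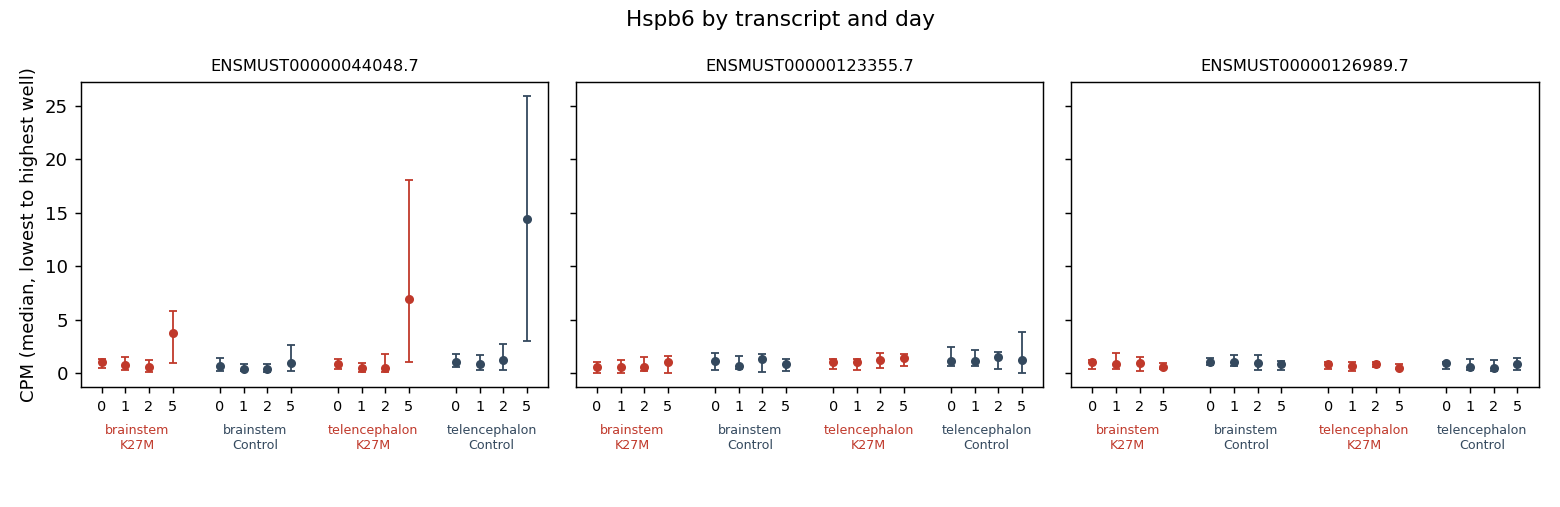
CPM of 3 Hspb6 transcripts by region, genotype and day, as medians of wells with the lowest and highest well. ENSMUST00000044048.7 reaches a median of 14.4 CPM in telencephalon Control and 6.95 CPM in telencephalon K27M at day 5, while the transcripts from the upstream starts have day 5 medians of at most 1.40 CPM.

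Hspb2 was close to absent before day 5. It had 0 to 12 counts per group over all wells of a group at days 0, 1 and 2, and 139 to 240 counts per group at day 5. At day 5 the medians were 0.328 CPM in brainstem K27M, 0.240 CPM in brainstem Control, 0.414 CPM in telencephalon K27M and 0.562 CPM in telencephalon Control, and all 36 wells had at least a count. The ratio of day 5 to day 0 was 29.7 in brainstem K27M (exact 95% interval 14.1 to 74.7, counting error only), 32.4 in brainstem Control (13.7 to 101), 70.1 in telencephalon K27M (23.5 to 344, from 3 counts at day 0) and 133 in telencephalon Control (36.3 to 1110, from 2 counts at day 0). Hspb2 lies head to head with Cryab on the other strand, and Cryab, at up to 345 CPM, gave far more reads. Hspb2 had 0.201 counts per 100 Cryab counts at day 5, and whether any of them came from the Cryab strand was not tested. Since Hspb2 passed the filter through day 5 wells, its day 5 call was fixed by the filter.

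Bag3, the co-chaperone that links HSPB8 to Hsp70, fell when cells began to differentiate, and its median was highest at day 0 in all series but telencephalon Control, where it was highest at day 5. At days 0, 1, 2 and 5 its medians were 13.0, 3.86, 2.92 and 6.96 CPM in brainstem K27M, 10.1, 3.77, 1.01 and 5.26 CPM in brainstem Control, 24.8, 4.15, 2.43 and 11.0 CPM in telencephalon K27M, and 12.3, 2.27, 4.68 and 16.1 CPM in telencephalon Control. At day 2 it had fallen by 2.29 ± 0.28 on the log2 scale in brainstem K27M, by 3.16 ± 0.29 in brainstem Control, by 3.21 ± 0.28 in telencephalon K27M and by 1.52 ± 0.27 in telencephalon Control (adjusted p between 7.24e-20 and 3.17e-07 over wells, at most 0.00849 over summed lines). At day 1 it fell by 1.44 ± 0.28 in brainstem Control, by 2.54 ± 0.27 in telencephalon K27M and by 1.97 ± 0.28 in telencephalon Control. The brainstem Control call at day 1 was lost with a DESeq2 fold threshold, with passage as a covariate and without culture 38, 41 or 42 (−1.69, −1.41 and −1.31), and that of telencephalon Control without culture 41 (−1.22, adjusted p = 0.137). In brainstem K27M at day 1 it was −1.30 ± 0.26, past the threshold over wells only (adjusted p = 1.77e-05 and 0.0631). At day 5 it was below day 0 by 1.05 ± 0.26 in brainstem K27M, 1.03 ± 0.26 in brainstem Control and 1.16 ± 0.26 in telencephalon K27M. In telencephalon Control at day 5 it was 0.55 ± 0.26 (adjusted p = 0.048 and 0.379). The day 5 falls of Bag3 in brainstem were not called over summed lines when any culture was left out (adjusted p = 0.0524 to 0.235). That in brainstem K27M was also lost without the telencephalon wells 42-1, which enter the same fit (−1.04, adjusted p = 0.0521), and that in telencephalon K27M without culture 38 or 41. Without culture 41 the day 2 fall in telencephalon Control was 0.67, and it was not called.

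K27M and Control cells gave Bag3 values that depended on day and region. In telencephalon, as a description, the log2 differences were 0.98, 0.41, −0.71 and −0.73 at days 0, 1, 2 and 5. At day 0 telencephalon K27M wells ranged over 17.2 to 32.8 CPM and Control wells over 4.42 to 26.9 CPM, and K27M was higher in 3 of 3 cultures. In brainstem Bag3 was past the threshold over wells at day 2, with 1.94 to 4.55 CPM in K27M wells and 0.349 to 2.43 CPM in Control wells (1.35 ± 0.29, adjusted p = 0.000182), and not over summed lines (0.138). Between regions, brainstem Control was lower than telencephalon Control at day 2, by a log2 difference of −2.05 ± 0.31 (adjusted p = 2.05e-08 and 0.00619, in 2 of 3 cultures), and at day 5, by −1.99 ± 0.30 (adjusted p = 7.16e-09 and 0.00505, in 3 of 3 cultures, with no overlap of wells). The day 2 value was −1.27 without culture 38 and −1.53 without culture 42, and the day 5 value −1.85 and −1.47, none of them called. Both calls were also lost with passage as a covariate, and that at day 5 without the brainstem day 5 wells of cultures 41 and 42. K27M cells gave 0.0031 ± 0.33 at day 2 and −0.80 ± 0.30 at day 5 (adjusted p = 0.995 and 0.0194 over wells, and 0.283 over summed lines at day 5). Bag3 overlaps 2610306O10Rik on the same strand.

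Hspa1a and Hspa1b, the inducible Hsp70 pair, were low throughout and rose with differentiation in every series. Their RNAs are near identical, and Hspa1b took 46.8 to 77.2% of the pair's counts in a library (median 63.9%), so the pair is given as a sum and the division between them is uncertain. At days 0, 1, 2 and 5 the pair's medians were 2.99, 4.23, 5.10 and 6.70 CPM in brainstem K27M, 2.58, 4.63, 4.19 and 6.86 CPM in brainstem Control, 3.07, 6.49, 6.75 and 9.79 CPM in telencephalon K27M, and 3.04, 4.95, 5.20 and 11.0 CPM in telencephalon Control. Hspa1b rose at day 5 over day 0 by 1.22 ± 0.23 in brainstem K27M, 1.54 ± 0.23 in brainstem Control, 1.89 ± 0.23 in telencephalon K27M and 1.90 ± 0.23 in telencephalon Control, and Hspa1a by 0.93 ± 0.21, 1.08 ± 0.21, 1.72 ± 0.21 and 1.76 ± 0.21 in the same order (adjusted p at most 3.13e-05 over wells and 0.0291 over summed lines). In brainstem K27M the day 5 call of Hspa1a was lost without culture 38, 41 or 42, and that of Hspa1b without culture 38 or 41. Without the brainstem day 5 wells of cultures 41 and 42 neither was called, nor was Hspa1a in brainstem Control. Hspa1a in brainstem K27M was also lost with the DESeq2 fold threshold and with no filter on low counts. Both genes had also risen by day 2 in all 4 series, by 0.94 to 1.35 on the log2 scale. The values were 0.33 and 0.38, with no call, in brainstem K27M without culture 42, and 0.47 and 0.58 in brainstem Control and 0.55 and 0.65 in telencephalon Control without culture 38, again not called. Cultures did not rise alike: at day 2 the pair stood at 10.3, 3.96 and 3.71 CPM in brainstem Control cultures 38, 41 and 42 and at 5.10, 3.82 and 12.4 CPM in brainstem K27M. K27M and Control differed by −0.45 to 0.34 in brainstem over the 4 days for either gene, and no day passed the test (smallest adjusted p = 0.138 over wells). Hspa1a was lower in brainstem Control than in telencephalon Control at day 5 (−1.05 ± 0.23, adjusted p = 6.64e-05 and 0.0469), a call that did not hold for the sum of the pair (−0.97, adjusted p = 0.0773 over summed lines). It was also lost with passage as a covariate, without the block for culture, and when culture 38, 41 or 42 was left out.

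**Figure D5:**
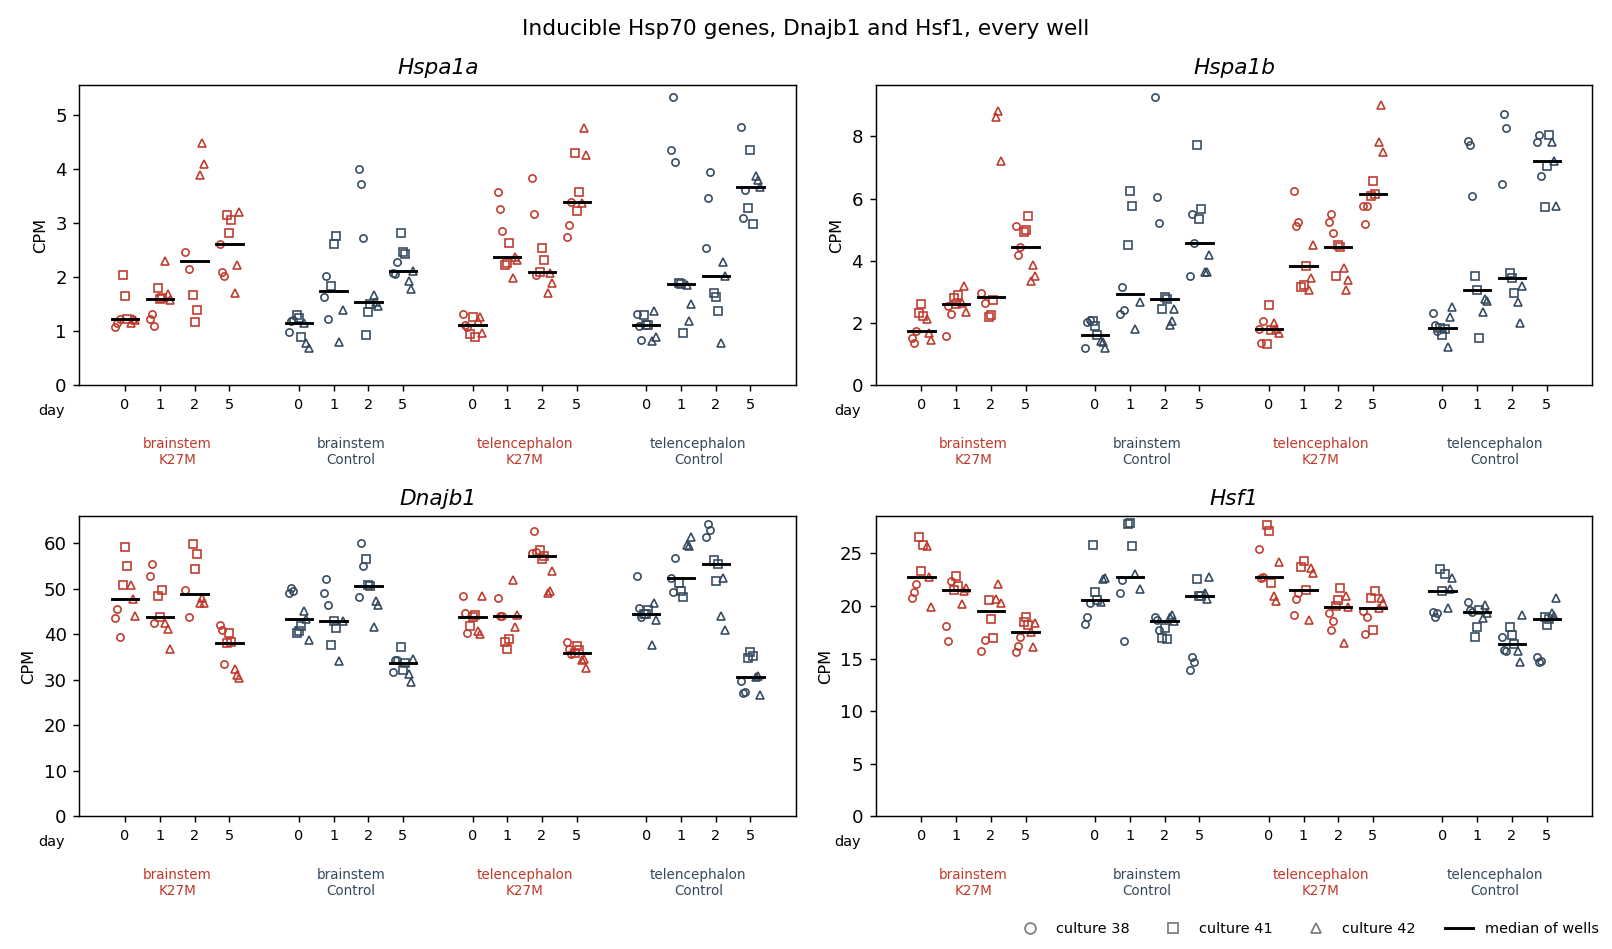
CPM on a linear axis from 0 for Hspa1a, Hspa1b, Dnajb1 and Hsf1 in each well by region and day, K27M left of Control, with group medians as bars. Hspa1a and Hspa1b climb to 1.70 to 4.78 and 3.35 to 9.01 CPM at day 5, while Dnajb1 (26.6 to 42.0 CPM at day 5) and Hsf1 (13.9 to 22.8 CPM) are lower at day 5 than at day 0 in the median of all series but one, brainstem Control for Hsf1.

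Dnajb1 and Hsf1 were the steadiest members. Dnajb1 lay between 26.6 and 64.1 CPM in all wells, and fell at day 5 below day 0 by 0.42 ± 0.07 on the log2 scale in brainstem K27M and in brainstem Control, by 0.29 ± 0.07 in telencephalon K27M and by 0.54 ± 0.07 in telencephalon Control. Hsf1 lay between 13.9 and 27.9 CPM and fell at day 5 by 0.41 ± 0.06 in brainstem K27M, 0.15 ± 0.06 in brainstem Control, 0.27 ± 0.06 in telencephalon K27M and 0.25 ± 0.06 in telencephalon Control. The smallest of these, in brainstem Control, had adjusted p = 0.0188 over wells and 0.0223 over summed lines, and its wells were 13.9 to 22.8 CPM at day 5 and 18.3 to 25.8 CPM at day 0. It was not called without the deepest library (−0.12, adjusted p = 0.0635) or without culture 38 (−0.07, adjusted p = 0.35), 41 or 42. At day 2 Hsf1 had fallen in all 4 series (−0.21 to −0.34) and Dnajb1 had risen in telencephalon K27M (0.36 ± 0.07). Without culture 41 the 4 Hsf1 values were −0.22, −0.33, −0.40 and −0.38 with no call (adjusted p = 0.0663 to 0.424 over summed lines), nor was any called with the DESeq2 fold threshold. The Dnajb1 rise was not called without culture 38 (0.30) or 41 (0.23). At day 5 the Hsf1 falls in telencephalon were not called without culture 41, nor the Dnajb1 falls in brainstem K27M without culture 42 and in telencephalon K27M without culture 41 or 42. Dnajb1 was lower in brainstem Control than in telencephalon Control at day 1, at 34.0 to 52.1 CPM against 48.2 to 61.3 CPM (−0.33 ± 0.08, adjusted p = 0.000111 and 0.0417), with −0.22 and no call under upper-quartile scaling. That call was also lost with passage as a covariate, without the block for culture, and without culture 41 or 42. The DESeq2 fold threshold and the fit with no filter on low counts lost it too. For K27M against Control in brainstem neither gene was called on any day, their log2 fold changes lying between −0.17 and 0.20.

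Counted together, the members called grew in number with the day, as did all genes. Hspb2 is left out of these counts, since the filter fixed its day 5 call, and so is Hspb8 in telencephalon. At day 1 against day 0, 0 of 8 members were called in brainstem K27M (18.6% of all genes were called, 2 members had an unadjusted p under 0.05, and DESeq2 called 1) and 1 of 8 in brainstem Control (18.3%). In telencephalon 3 of 7 were called in K27M (31.8%) and 2 of 7 in Control (37%). At day 2 the counts were 4 of 8 in brainstem K27M (47.5%), 4 of 8 in brainstem Control (52.6%), 5 of 7 in telencephalon K27M (51.7%) and 4 of 7 in telencephalon Control (55.2%). At day 5 they were 8 of 8 in brainstem K27M, 5 higher and 3 lower (59.6% of all genes, 31.6% higher and 28% lower), and 7 of 8 in brainstem Control, 4 higher and 3 lower (64.9%, 32.8% higher and 32.1% lower). They were 7 of 7 in telencephalon K27M, 4 higher and 3 lower (64.9%, 33.7% higher and 31.2% lower), and 6 of 7 in telencephalon Control, 4 higher and 2 lower (64.4%, 33.9% higher and 30.5% lower). Brainstem was compared with telencephalon over the 8 members other than Hspb8. In K27M cells 0, 0, 1 and 2 were called at days 0, 1, 2 and 5 (16.7%, 18.9%, 20.1% and 24.2% of all genes; 3 and 5 members at an unadjusted p under 0.05 at days 0 and 1, where DESeq2 called 0 and 1), and in Control cells 0, 1, 1 and 3 (27.2%, 40.9%, 27% and 28.9%; 2 members at an unadjusted p under 0.05 at day 0, where DESeq2 called 0). The median log2 difference between day 5 and day 0 over the members counted by day was 0.94 in brainstem K27M, 0.61 in brainstem Control, 1.72 in telencephalon K27M and 1.76 in telencephalon Control, beside 0.06, 0.07, 0.08 and 0.09 over all genes.

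Genes that work with the members were read from lists of families and partners. Their counts stand beside the shares of all genes called at day 5 against day 0. Called higher were 31.6% in brainstem K27M, 32.8% in brainstem Control, 33.7% in telencephalon K27M and 33.9% in telencephalon Control. Called lower were 28%, 32.1%, 31.2% and 30.5% in the same order. Whether a list differed from these shares was not tested. Of 10 partners of BAG3 in autophagy, 8 rose and 1, the ubiquitin ligase Stub1, fell at day 5 in each of the 4 series, with list medians of 1.49 in brainstem K27M, 1.78 in brainstem Control, 1.90 in telencephalon K27M and 1.88 in telencephalon Control. The highest were Synpo2, a Z-disc protein that binds BAG3 (4.38 ± 0.39 in brainstem K27M, 4.40 ± 0.45 in brainstem Control, 4.33 ± 0.39 in telencephalon K27M and 5.04 ± 0.39 in telencephalon Control), and Flnc, the filamin that is a BAG3 client (3.54 ± 0.21, 4.32 ± 0.23, 4.07 ± 0.22 and 3.81 ± 0.22 in the same order). Of the 7 genes listed by symbol as other small heat shock genes, 2 could be tested, Cryab and Hspb11. Cryab, the myelin-associated chaperone, rose at day 5 by 5.79 in brainstem K27M, 7.51 in brainstem Control, 8.26 in telencephalon K27M and 7.41 in telencephalon Control, more than any member. Of the 5 other BAG genes, Bag2 and Bag4 fell in each series. Of 12 other Hsp70 genes tested, 2 rose and 3 fell in brainstem K27M, 3 and 4 in brainstem Control, 2 and 7 in telencephalon K27M, and 2 and 6 in telencephalon Control. Of 12 other DNAJ genes 4 rose and 2 fell, 6 and 1, 5 and 2, and 5 and 2 in the same order. Among 4 other heat shock factor genes Hsf5 and Hsbp1, whose product binds HSF1, rose and Hsf2 fell in each series. Of 14 Hsp90 and other heat shock response genes, 2 rose and 9 fell in brainstem K27M, 4 and 7 in brainstem Control, 2 and 9 in telencephalon K27M, and 3 and 8 in telencephalon Control. The chaperonins Hspd1 and Hspe1 and the Hsp90 gene Hsp90ab1 were among those that fell in each. Dnajb2, a neural Hsp40 gene, rose by 2.78, 3.04, 3.73 and 3.65 in the same order, and Hspa2, an Hsp70 gene, by 2.60, 2.70, 3.28 and 3.404. All 10 myelin markers rose at day 5 in each series.

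Against Control, K27M brainstem cells held more RNA of Flnc on every day, by 2.10 ± 0.22, 1.68 ± 0.22, 1.23 ± 0.21 and 1.32 ± 0.19 on the log2 scale at days 0, 1, 2 and 5 (adjusted p at most 9.02e-07 over wells and 0.0265 over summed lines). Hspa12a, a distant Hsp70 relative, was higher by 2.20 ± 0.20, 2.29 ± 0.22 and 1.32 ± 0.21 at days 0, 1 and 2. It was not particular to brainstem: in telencephalon, as a description, Hspa12a differed by 1.72 at day 0 and 2.34 at day 1. Serpinh1, the collagen chaperone Hsp47, was higher by 3.86 ± 0.60 at day 1 and 3.52 ± 0.58 at day 2. Synpo2 was higher at day 5 by 1.61 ± 0.34, and Bag2, another BAG gene, by 0.63 ± 0.10. The heat shock factor gene Hsf5 went the other way at day 1, with a log2 fold change of −0.78 ± 0.21. How far these list calls depend on passage or on a single culture is not reported here. In telencephalon, as a description, Cryab differed by −1.01, −0.72, −1.97 and −0.15 at days 0, 1, 2 and 5.

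The genes whose pattern over the 48 sums of a line and day was most like that of a member were sought among protein-coding genes, by Pearson's r of log2 CPM. These values are a description, since the sums share the differentiation course. Hspb8 was most like Sorl1 (0.96) and Slc39a12 (0.95), Hspb1 most like Folh1 (0.95), Osmr (0.94) and Kcnn2 (0.93), and Hspb2 most like Carns1, Ndrg1 and Endod1 (0.97 each). Hspb6 was most like Bcar3 (0.90) and Stat5a (0.90), and Bag3 most like Npas2 (0.89), Rassf3 (0.88) and Timp1 (0.88). Hspa1a and Hspa1b had the same nearest genes, Calcoco1 (0.82 and 0.85) and Col7a1 (0.81 and 0.84). Dnajb1 was most like Srpk1 (0.90) and Hsf1 most like Tcof1 (0.89).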

How the data were processed

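RNA of 142 wells was sequenced from a stranded total RNA kit, paired-end, 100 cycles, on a NovaSeq. The authors quantified transcripts with Salmon 1.10.1 (build mm10, Gencode vM25 with sequence and GC bias correction per the study's methods), and the deposited tables give an expected (estimated) count, a TPM value and an effective length (another per-transcript quantity) for 141084 transcripts. Here the estimated counts and TPM deposited by the authors were summed per gene through the Gencode M21 annotation, which matched 139821 transcripts. The rest, 0.252 to 0.377% of a library's counts, stayed out of the gene sums. Sums were rounded to whole counts. The scale differs from read counts: Salmon divides reads among transcripts, so near-identical genes share them.

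The test was edgeR's quasi-likelihood test with TMM factors, filterByExpr by group (a CPM of 0.214 in at least 8 wells) and culture within region as a block, taken from the study's own model, over 19769 genes, and again over 23003 genes on counts summed per line and day. A call needed adjusted p under 0.05 in both. Benjamini-Hochberg adjustment ran over all genes in each of 33 comparisons. Whether numbers pair the samples was checked from same-culture deviations of K27M and Control: r was −0.378 to 0.476 in brainstem (9 of 12 over 0.1) and 0.0036 to 0.828 in telencephalon (8 of 12 over 0.1), so the block rests on the study's methods, which use the culture number as a term. A p-value over wells rests on well-to-well spread, which is partly technical. Intervals on counts cover counting error only. The tests were tried on simulated counts. Versions were R 4.3.3, edgeR 4.0.16 and DESeq2 1.42.0.

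The members and the lists of related genes and cell markers were chosen with earlier results of these data known. Named genes are the 9 members, up to 2 highest and 2 lowest called genes of a heat shock list in a comparison, up to 3 most alike genes per member (mean CPM of at least 1, some of them not reported here) and up to 3 genes of a marker list. Calls were recomputed under DESeq2 with and without a fold threshold of 1.1, other scalings, filters and covariates, and with libraries left out. Promoters are from the RefSeq table for GRCm38.p6, matched by symbol.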

Additional observations from a re-analysis of the deposited data

Results flagged for a closer look

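Within groups of 8 or 9 wells, 5 of 144 sets of a member and a group had a highest well whose gap to the next was beyond Dixon's critical value, and chance alone gives about 1 in 20. Telencephalon K27M well 42-1 stood apart for Hspb8 at day 1 (7.501 CPM, the next well 1.289 CPM) and at day 2 (29.73 CPM, the next 3.902 CPM), and for Hspb1 at day 2 (1.108 CPM, the next 0.1036 CPM). For Hspb2 brainstem Control well 38-1 stood apart at day 2 (0.1193 CPM, the next 0.04453 CPM), as did telencephalon Control well 42-3 at day 2 (0.1328 CPM, the next 0.05098 CPM), both from few counts.

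On counts summed per line, the K27M-to-Control difference of Hspb8 was positive in all 3 brainstem cultures at days 0, 1 and 2. It was negative in all 3 telencephalon cultures on these days. At day 0 this did not hold for the mean of wells in telencephalon culture 41 (5.02 CPM in K27M and 4.90 CPM in Control). The fitted difference was 0.9072 in brainstem and −0.537 in telencephalon at day 0, 1.456 and −1.561 at day 1, and 1.769 and −2.695 at day 2 (log2), so that brainstem minus telencephalon came to 1.444, 3.017 and 4.464. Without the telencephalon wells 42-1 it came to 3.70 at day 1 and 5.47 at day 2. The difference was not tested, since Hspb8 was chosen on the telencephalon contrast. Dnajb1 at day 1 gave 0.09648 in brainstem and −0.3334 in telencephalon (a difference of 0.4299), and Hsf1 at day 1 gave −0.1668 and 0.1783 (−0.3451). From day 0 to day 1 Dnajb1 changed by −0.05048 in brainstem Control and 0.2746 in telencephalon Control (−0.3251), and Hsf1 by −0.1577 in brainstem K27M and 0.1375 in brainstem Control (−0.2952). These 4 further differences were not tested either.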

How the results depend on the processing

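Of 66 calls on single members, DESeq2 and the effective length offset kept all 66, the fits without the deepest library and without telencephalon K27M wells 42-1 kept 65 each, upper-quartile scaling 62, passage as a covariate 58, no filter on low counts 57, the fit without brainstem day 5 wells of cultures 41 and 42 kept 55, and DESeq2 with a fold threshold of 1.1 kept 46. Summing Hspa1a and Hspa1b kept 56 of 57. Leaving out culture 38, 41 or 42 kept 41, 36 and 44 of 66, where fewer lines enter. No call changed sign under these settings. Of the 66, 4 are the day 5 calls of Hspb2, which the filter fixed and of which 0 were lost, and 62 are of other members. The choices to ask for the wells alone and to leave out wells 42-1 were made after the data had been seen, and the Hspb8 values without those wells stand beside the main ones.

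Counts of member calls were less stable than directions. K27M against Control in brainstem gave 3 over 4 days, 9 from the wells alone, 1 with passage as a covariate, and 0 to 2 when a culture was left out. Brainstem against telencephalon gave 5 in Control cells, 12 from the wells alone, 3 with the DESeq2 fold threshold, with upper-quartile scaling, without a filter, with passage, or without brainstem day 5 wells of cultures 41 and 42, and 1 to 4 when a culture was left out. In K27M cells it gave 3, with 14 from the wells alone, 5 from DESeq2 and 1 to 2 when a culture was left out. The days gave 13 in brainstem K27M and 13 in brainstem Control, 8 in each with the DESeq2 fold threshold, 8 in K27M without the day 5 wells of cultures 41 and 42, and 8 to 9 in K27M and 8 in Control when a culture was left out. They gave 16 in telencephalon K27M (7 to 15 when a culture was left out) and 13 in telencephalon Control (9 to 13). In each of these series the day count includes the day 5 call of Hspb2, which the filter fixed. The change of the day 5 rise with K27M gave 0, and 2 from the wells alone. Without the replicate block for culture, 55 of 66 calls were kept, with 1 call for K27M against Control in brainstem, 3 between regions in Control and 0 between regions in K27M. The cause of these differences was not tested.

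Calls over all genes differed by more than 1.5 times in 22 of 33 comparisons without the block, 18 with the DESeq2 fold threshold, 10 with DESeq2, 10 with passage, 8 without a filter, 8 without the brainstem day 5 wells and 17, 25 and 18 without culture 38, 41 and 42. For K27M against Control in brainstem at day 5 the 2400 calls became 1368, 1378, 3147, 1133, 1723 and 52 under the first 6 of these, and 194 to 4031 when a culture was left out. At day 2 the 843 calls were 409, 560, 1354, 692, 618 and 1010 under the same 6 settings, and 150 to 718 when a culture was left out. Depth limits Hspb1 before day 5 and Hspb2 throughout. TPM served only to compare levels between genes.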
